A study of Arabidopsis thaliana with 36 samples.

Results

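The plastid ribosomal protein genes rpl14, rpl16 and rps15 of Arabidopsis thaliana were followed across xylem, cork and whole hypocotyl. They were taken as the probe sets of the ATH1 array that name 1 of these lower-case organelle symbols alone, which gave 3 probe sets for 3 genes, out of 13513 probe sets that name 1 gene (13350 distinct genes). A further probe set, which names rpl16 together with rps3 of the mitochondrial genome, was left out. All 3 members passed the filter on low intensity, so none of them was lost before testing. In the plastid gene order rpl16 (ArthCp060) adjoins rpl14 (ArthCp059) on one side and rps3 on the other. The third gene, rps15 (ArthCp081), lies elsewhere in the plastid genome, between ndhH and ycf1.

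The series concerns dormancy and secondary growth, the thickening of stem and hypocotyl by the vascular cambium. It holds 36 arrays in 12 groups of 3, each array made from the pooled RNA of 200 to 400 plants grown on compost at 22 °C in 24 h light; plant ages are not given in the labels. Xylem and cork came from wild-type Col-0, from a MYB61 knockout and from a MYB50 knockout, lines without either of a pair of MYB transcription factor genes. Whole hypocotyls came from wild-type Ler, from abi1 (insensitive to the hormone abscisic acid) and aba1 (deficient in it), both labelled as Ler, and from wild-type Col-0, max4 (deficient in strigolactone) and axr1 (resistant to auxin). No allele numbers are given for any mutant, and the labels do not state the accession behind max4 and axr1. In the main fit each p-value rests on a gene's spread within groups, pooled over all 36 arrays. No label says how the pools of a group differ, so this spread may be in part technical.

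Plastids keep a small genome of their own and translate its messages on bacterial-type ribosomes, whose proteins are coded partly in the plastid and partly in the nucleus. RPL14 and RPL16 belong to the large subunit, in which the bacterial counterpart of RPL16 helps to place tRNA at the aminoacyl site and that of RPL14 sits at the interface with the small subunit. RPS15 belongs to the small subunit, and its Escherichia coli counterpart binds the small-subunit ribosomal RNA early in assembly; in tobacco, plants without rps15 are viable. Both large-subunit genes lie in a conserved cluster of ribosomal protein genes transcribed together, while rps15 lies at the end of a cluster coding mainly for the plastid NADH dehydrogenase-like complex. In wood and cork many plastids are not green, and they serve storage and the making of fatty acids and other compounds. Plastid messages mostly lack a lasting poly(A) tail, and the labelled RNA here was copied from an oligo-dT primer, so each level is of the RNA that this primer copied.

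Values are probe-set intensities that had been scaled to a common level on each array, and a gene's intensity was compared with itself between groups; levels of different genes were not ranked against each other. Log2 differences are of intensity plus 16, with their standard error (SE). A gene is called where its adjusted p was under 0.05. Array medians lay between 35.1 and 44.9, and arrays of a group correlated at 0.958 to 0.993. Of the tissue markers listed, 3 of 8 for xylem wall, 3 of 6 for phloem, 4 of 20 for green tissue and 1 of 6 for cork suberin could be read; the suberin marker was at 109.0 to 120.8 in Col-0 cork and 13.8 to 21.4 in Col-0 xylem. Phloem and green markers were also high in cork, at summed intensities of 476.1 to 497.0 and 660.9 to 863.9 against 84.1 to 93.2 and 144.1 to 278.8 in xylem of Col-0, so the material labelled cork also carried these transcripts. The summed xylem wall markers were 121.2 to 338.0 in xylem and 81.2 to 109.4 in cork of Col-0. They were 111.3 to 208.0 and 91.7 to 115.1 in the MYB61 knockout, and 996.6 to 1460.4 and 150.8 to 196.7 in the MYB50 knockout. Their part in the xylem comparisons was not tested. No probe set used here names MYB61, MYB50 or another of the mutated genes, so the mutants could not be checked on their own transcripts.

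All 3 transcripts were highest in the cork of wild-type Col-0. The lowest of its 3 arrays lay above each of the other 33 arrays for rpl14 (532.1 against at most 503.7), for rpl16 (947.4 against at most 894.5) and for rps15 (227.9 against at most 207.8). How many of all probe sets share this pattern was not counted. Group means spanned 4.13-fold for rpl14, 3.05-fold for rpl16 and 3.25-fold for rps15. Both knockouts had lower levels of all 3 genes than Col-0 in cork, and Ler hypocotyls had lower levels than Col-0 hypocotyls. Among the hormone mutants, rps15 was higher in max4 and rpl16 lower in axr1 than in Col-0, and no member was called in abi1 or aba1 against Ler.

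**Figure D1:**
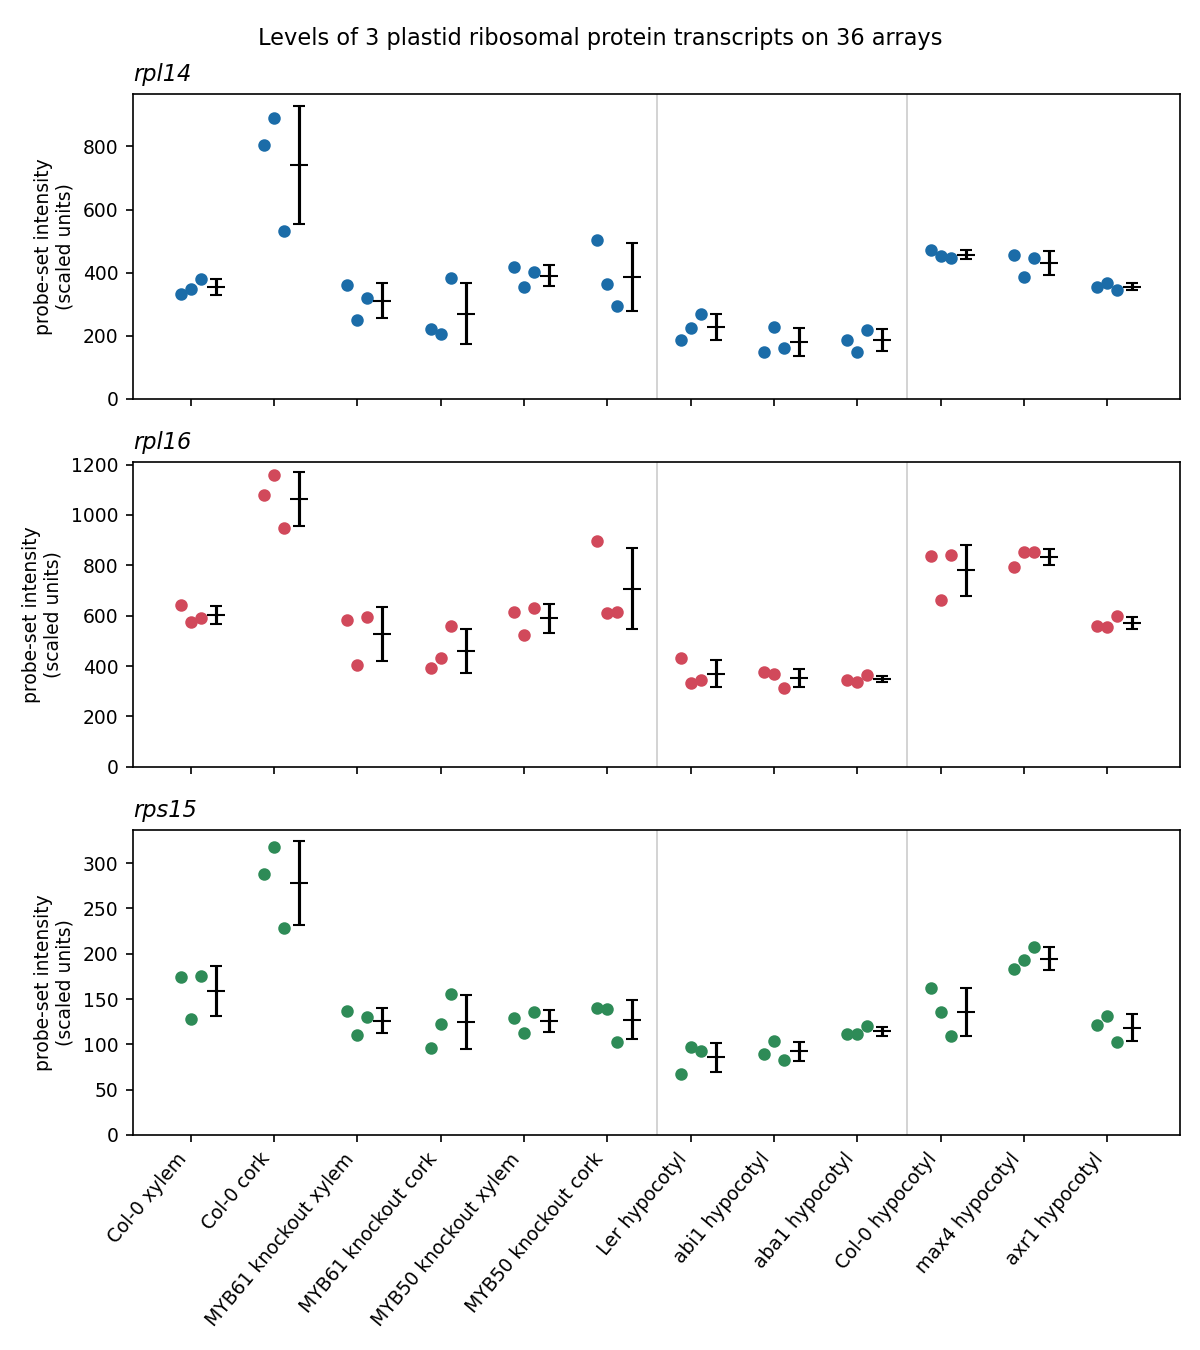
Probe-set intensity (scaled units) of rpl14, rpl16 and rps15 on each of 36 arrays, by group; coloured points are arrays and black bars the group mean ± SD (n = 3). The 3 Col-0 cork arrays stand above all others in each panel, and the groups between them and the lowest group mostly overlap their neighbours.

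For rpl14, the 3 arrays of a group are given in replicate order. In Col-0 xylem its intensities were 332.2, 349.2 and 380.5, and in Col-0 cork 803.4, 889.8 and 532.1. The cork arrays all lay above the xylem arrays, and the third was well below the other two. In the MYB61 knockout they were 361.4, 251.3 and 318.1 in xylem and 220.9, 206.6 and 382.1 in cork. In the MYB50 knockout they were 417.5, 353.2 and 401.6 in xylem and 503.7, 362.7 and 293.3 in cork. Within each knockout the tissues overlapped, and the cork arrays were more spread than the xylem arrays. Hypocotyl levels were 186.2, 224.7 and 268.8 in Ler, 148.0, 229.0 and 162.4 in abi1, and 187.5, 149.6 and 219.1 in aba1. They were 472.9, 452.2 and 444.9 in Col-0, 456.0, 385.7 and 446.1 in max4, and 355.5, 365.6 and 344.5 in axr1. The 9 arrays of Ler, abi1 and aba1 (148.0 to 268.8) did not overlap the 9 of Col-0, max4 and axr1 hypocotyl (344.5 to 472.9). How many of all probe sets separate these arrays in the same way was not counted. Between Ler and Col-0 hypocotyl alone 57.8% of all probe sets tested were called. From Col-0 cork (mean 741.8) down to abi1 (179.8), 10 of 11 neighbouring groups overlapped; the exception was Col-0 cork against the next group, Col-0 hypocotyl.

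For rpl16, Col-0 xylem had intensities of 642.9, 573.3 and 591.4 and Col-0 cork 1080.2, 1159.0 and 947.4. The cork arrays again all lay above those of xylem. In the MYB61 knockout xylem had 584.2, 404.7 and 593.3 and cork 391.4, 431.0 and 557.3, and in the MYB50 knockout xylem had 614.1, 524.6 and 632.0 and cork 894.5, 611.7 and 615.8. Tissues overlapped in both knockouts, and 1 array of MYB50 knockout cork, replicate 1, came near the Col-0 cork arrays. The label of that array marks it as a repeat. Ler, abi1 and aba1 hypocotyls had 431.4, 334.3 and 343.2, then 375.1, 369.0 and 313.8, then 343.4, 337.9 and 363.1. Col-0, max4 and axr1 hypocotyls had 835.1, 662.2 and 842.5, then 794.1, 851.3 and 851.9, then 560.6, 555.1 and 599.7. Here too the arrays of Ler, abi1 and aba1 (313.8 to 431.4) lay wholly below those of Col-0, max4 and axr1 hypocotyl (555.1 to 851.9). The share of all probe sets with this pattern was again not counted. From Col-0 cork (mean 1062.2) to aba1 (348.1), 10 of 11 neighbouring groups overlapped, and Col-0 cork against max4 did not.

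For rps15, the intensities were 174.5, 127.6 and 174.9 in Col-0 xylem and 288.6, 318.2 and 227.9 in Col-0 cork. The tissues of Col-0 did not overlap. The MYB61 knockout had 137.0, 110.3 and 130.6 in xylem and 95.9, 122.3 and 155.5 in cork, and the MYB50 knockout had 129.1, 112.1 and 135.5 in xylem and 140.3, 138.9 and 102.0 in cork. All 12 of these knockout arrays were below the Col-0 cork arrays, with the tissues overlapping. Ler, abi1 and aba1 hypocotyls had 67.6, 96.6 and 92.9, then 89.7, 104.1 and 83.2, then 111.7, 111.5 and 120.3. Col-0, max4 and axr1 hypocotyls had 162.4, 136.1 and 108.7, then 182.7, 193.3 and 207.8, then 121.6, 131.2 and 102.2. For this gene the arrays of Ler, abi1 and aba1 (67.6 to 120.3) overlapped those of Col-0, max4 and axr1 hypocotyl (102.2 to 207.8). The max4 arrays lay above the other hypocotyl groups. In the order of means from Col-0 cork (278.2) to Ler (85.7), 8 of 11 neighbours overlapped; Col-0 cork against max4, max4 against Col-0 xylem and aba1 against abi1 did not.

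The first comparison asks how the woody and the corky tissue differ. In Col-0, xylem had less of all 3 transcripts than cork: rpl14 fell by 1.0 on the log2 scale (SE 0.2, adjusted p = 0.000109, 2.1-fold between means), rpl16 by 0.8 (SE 0.14, adjusted p = 2.6e-05, 1.76-fold) and rps15 by 0.75 (SE 0.15, adjusted p = 0.000181, 1.75-fold). In this comparison 40.2% of the 15924 probe sets tested were called (20.4% called lower in xylem), so calls as such were common. In a bulk sample, fewer cells or plastids with the transcript and less transcript in each cannot be told apart. In the MYB61 knockout 0 of 3 were called, with log2 differences between xylem and cork of 0.23, 0.19 and 0.03 for rpl14, rpl16 and rps15, where 33.8% of all probe sets were called. In the MYB50 knockout 0 of 3 were called either, at 0.04, -0.24 and -0.01 against a background of 40.2%. Averaged over the 3 genotypes, rpl16 (-0.28, SE 0.08, adjusted p = 0.00377) and rps15 (-0.24, SE 0.09, adjusted p = 0.0206) were lower in xylem and rpl14 missed the threshold (-0.24, SE 0.11, adjusted p = 0.0686), with 55.5% of all probe sets called. These averages mixed a difference in Col-0 with overlapping tissues in both knockouts. The call of rps15 was lost without Col-0 xylem replicate 2 (adjusted p = 0.0617), Col-0 cork replicate 2 (0.0534) or MYB61 knockout cork replicate 3 (0.0649).

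The next comparisons ask what the loss of each MYB gene goes with, and both knockouts were set against the same Col-0 arrays. In cork of the MYB61 knockout all 3 transcripts were below Col-0 without overlap: rpl14 fell by 1.43 (SE 0.2, adjusted p = 1.78e-05, 2.75-fold), rpl16 by 1.19 (SE 0.14, adjusted p = 1.91e-06, 2.31-fold) and rps15 by 1.08 (SE 0.15, adjusted p = 2.63e-05, 2.23-fold). Of all probe sets 8.00% were called in this comparison, with 4.11% called lower. In cork of the MYB50 knockout rpl14 fell by 0.91 (SE 0.2, adjusted p = 0.000355, 1.92-fold), rpl16 by 0.59 (SE 0.14, adjusted p = 0.001, 1.5-fold) and rps15 fell by 1.04 (SE 0.15, adjusted p = 1.94e-06, 2.19-fold), also without overlap. There the background was far higher, at 42.2% called and 20.9% lower. These 6 calls, and the 3 in Col-0 xylem against cork, were kept under each alternative run.

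In xylem neither knockout had a called member. The MYB61 knockout differed from Col-0 by -0.19 for rpl14 (95% interval -0.59 to 0.21), -0.21 for rpl16 (-0.49 to 0.08) and -0.29 for rps15 (-0.61 to 0.02), where 1.88% of all probe sets were called. The MYB50 knockout differed by 0.14 (-0.27 to 0.54), -0.03 (-0.32 to 0.26) and -0.3 (-0.61 to 0.01), where 44.6% were called. Without Col-0 xylem replicate 2, the lowest of its group for rps15, the last value was -0.43 and was called (adjusted p = 0.036). The difference between the knockout's effect in xylem and in cork was tested as a contrast of its own. For the MYB50 knockout it was called for all 3 genes, at 1.05 for rpl14 (SE 0.28, adjusted p = 0.00774), 0.56 for rpl16 (SE 0.2, adjusted p = 0.047) and 0.74 for rps15 (SE 0.22, adjusted p = 0.015), with 18.2% of all probe sets called and 8.73% called on the higher side. The rpl14 call held under each alternative run, the rpl16 call was lost under 14 of 23, and the rps15 call was lost without Col-0 xylem replicate 2 (adjusted p = 0.0587), Col-0 cork replicate 2 (0.0524) or MYB50 knockout cork replicate 3 (0.0609). For the MYB61 knockout rpl16 was called (0.98, SE 0.2, adjusted p = 0.0347), while rpl14 (1.23, SE 0.28, adjusted p = 0.0754) and rps15 (0.78, SE 0.22, adjusted p = 0.145) were not; the background was 0.113%, and the rpl16 call was lost under 12 of 23 alternatives.

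The knockouts were also set against each other over both tissues. The MYB61 knockout had less rpl14 (-0.42, SE 0.14, adjusted p = 0.012) and rpl16 (-0.39, SE 0.1, adjusted p = 0.00169) than the MYB50 knockout, 2 of 3 members called where 51.2% of all probe sets were. For rps15 the difference was -0.02 (95% interval -0.24 to 0.2). The rpl14 call was lost without MYB50 knockout cork replicate 1, the array marked as a repeat (-0.32, adjusted p = 0.0577), and with array quality weights (-0.31, adjusted p = 0.0522). With a covariate for the actin 3' to 5' ratio, a measure of RNA integrity, both calls were lost, at -0.12 for rpl14 (adjusted p = 0.578) and -0.28 for rpl16 (adjusted p = 0.0782).

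**Figure D2:**
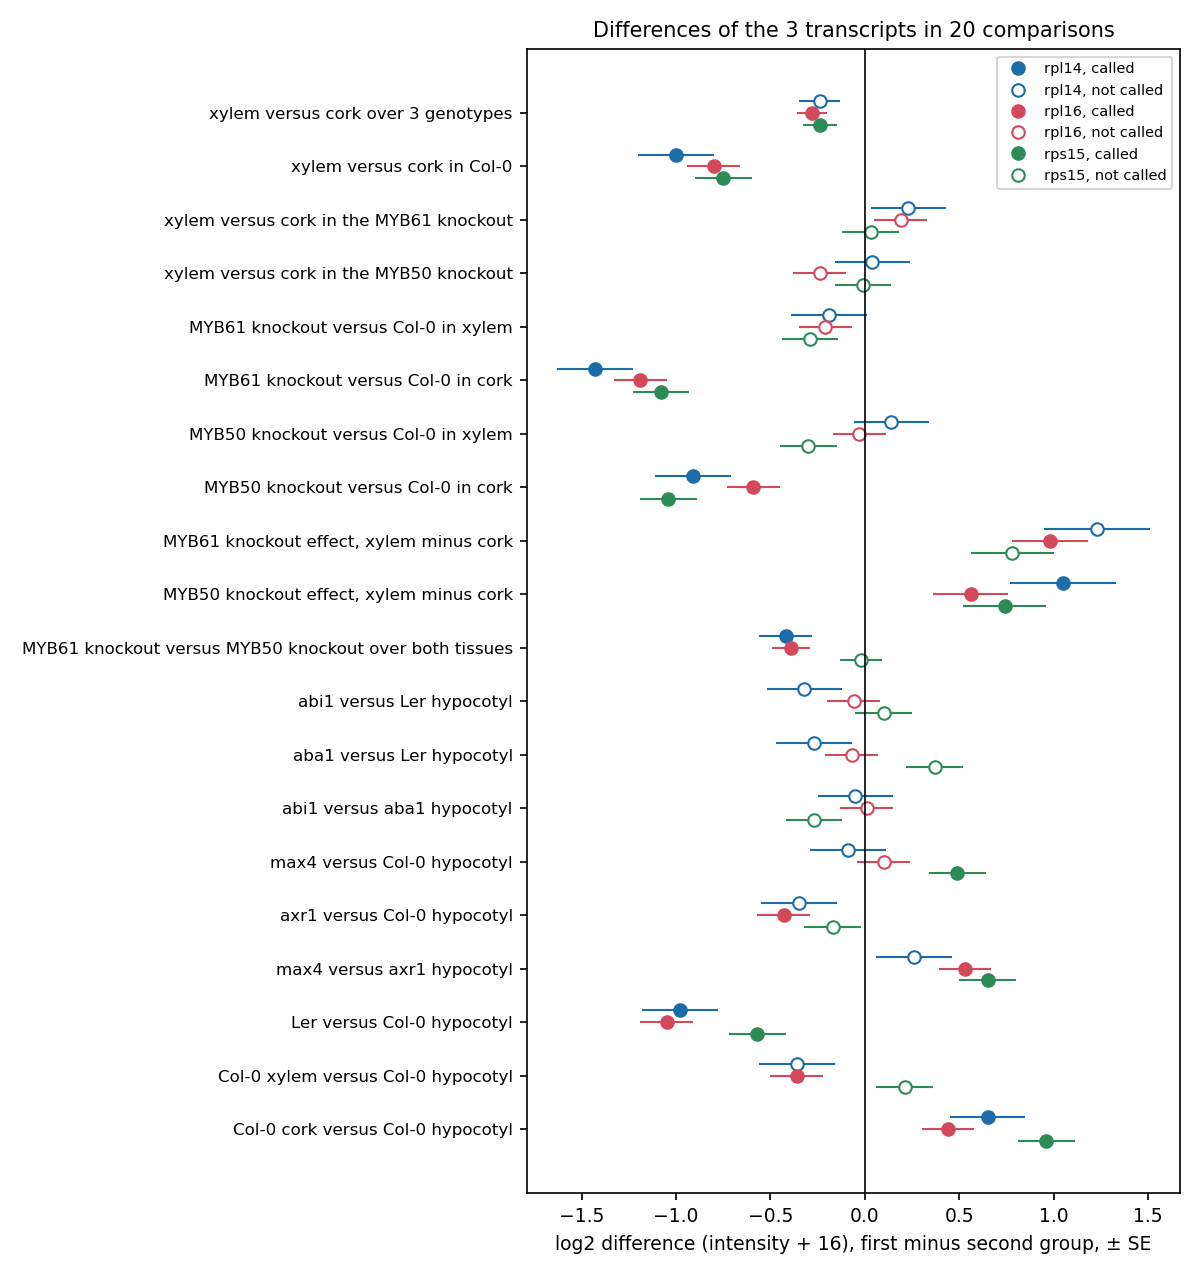
Log2 differences (first minus second group, ± SE) of rpl14, rpl16 and rps15 in 20 comparisons; filled points were called at an adjusted p under 0.05 and open points were not. All 3 genes are filled and left of 0 in Col-0 xylem against cork, in both knockout corks and in Ler against Col-0, while max4 and axr1 against Col-0 have 1 filled point each.

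Other array measures moved with Col-0 cork. The 25S ribosomal RNA control, which is nuclear-coded and no plastid transcript, read 2658.7 to 3027.1 in Col-0 cork, 186.5 to 2389.3 in MYB61 knockout cork and 130.2 to 1388.2 in MYB50 knockout cork. The scanner background was 69.38 to 75.52, 89.4 to 120.8 and 64.23 to 104.89 in the same 3 groups. With the 25S control as a covariate, rpl14, rpl16 and rps15 were called lower in MYB61 knockout cork (-1.28, -1.1 and -0.96) and in MYB50 knockout cork (-0.69, -0.45 and -0.87, adjusted p = 0.0157, 0.0284 and 0.000209). Col-0 cork overlapped neither knockout cork in the 25S control, so this covariate cannot tell genotype and that measure apart. The summed green-tissue markers were 505.4 to 649.8 in MYB61 knockout cork, below Col-0 cork, and 1216.8 to 1288.4 in MYB50 knockout cork, above it. Of the 4 green markers, 1 was called lower in MYB61 knockout cork and 3 higher in MYB50 knockout cork. The summed phloem markers were 528.5 to 594.7 and 1044.9 to 1161.2 in these groups, both above Col-0 cork. Of the 3 phloem markers 0 were called in MYB61 knockout cork. In MYB50 knockout cork 2 were called higher and 1 lower (-0.68 to 1.41). The suberin marker was 76.4 to 90.8 in MYB61 knockout cork and 216.3 to 242.1 in MYB50 knockout cork, below and above Col-0 cork. With the scanner background as a covariate, rpl14, rpl16 and rps15 were called at -1.36, -1.1 and -1.11 in MYB61 knockout cork and at -0.88, -0.55 and -1.05 in MYB50 knockout cork. Col-0 cork did not overlap MYB61 knockout cork in the scanner background, so genotype and this measure cannot be told apart there either. The part of the tissue markers in the differences was not tested.

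**Figure D3:**
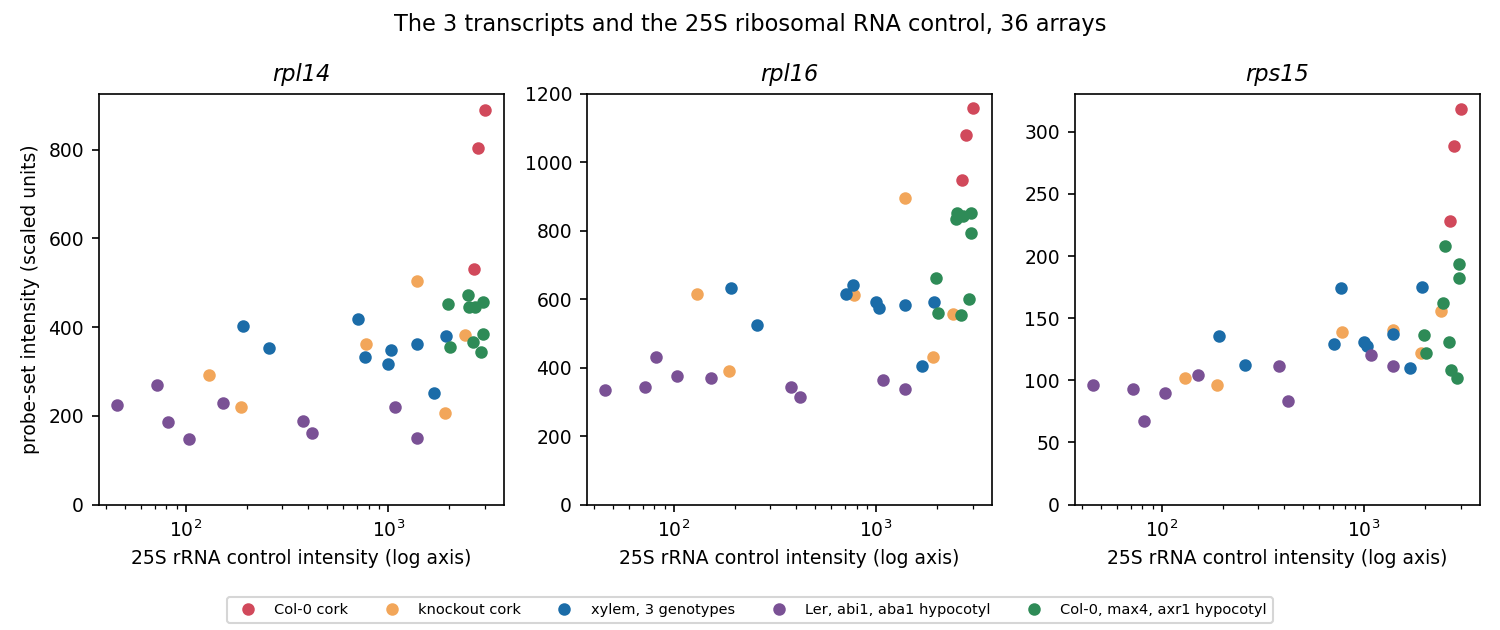
Probe-set intensity (scaled units) of each gene against the intensity of the 25S ribosomal RNA control (log axis), 1 point per array, 36 arrays. The Col-0 cork arrays (25S at 2658.7 to 3027.1) stand above the Col-0, max4 and axr1 hypocotyl arrays that reach similar 25S values, and the Ler, abi1 and aba1 arrays lie low at 25S values from 45.6 to 1391.7.

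Other plastid genes were read beside the 3 members. Of 18 other plastid genes for ribosomal proteins listed, 12 could be tested. In Col-0, 5 of them were lower in xylem than in cork, beside 20.4% of all probe sets, and 0 higher (median -0.31, against 0.02 for all probe sets tested), among them rps14 (-1.1, adjusted p = 0.0084) and rpl20 (-0.57, adjusted p = 0.0158). In MYB61 knockout cork 3 fell, beside 4.11% of all probe sets (median -0.28, against 0.0), among them rpl36 by 1.08 and rpl20 by 0.95. In MYB50 knockout cork 3 of the 12 fell, near the 20.9% called lower over all probe sets (median -0.2, against 0.0), among them rpl20 by 0.82 and rps16 by 0.54. Of the 46 plastid photosynthesis genes tested, 37 were lower in xylem than in cork of Col-0, 17 fell and 1 rose in MYB61 knockout cork, and 28 fell and 2 rose in MYB50 knockout cork. The gene accD, for a subunit of the acetyl-CoA carboxylase of fatty acid synthesis, was lower in MYB61 knockout cork by 1.09 (adjusted p = 7.34e-05) and in MYB50 knockout cork by 1.58 (adjusted p = 4.28e-09). Of the 4 plastid RNA polymerase genes, rpoC2 fell in both (-0.71, adjusted p = 0.0104, and -0.59, adjusted p = 0.00721) and the other three were not called.

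The genes next to the members on the plastid genome were read beside them. In the cluster of rpl14 and rpl16, 5 further genes could be tested (rps19, rpl22, rps3, rpl36 and rpoA, of which the first 4 are also among the 12 above). In Col-0 xylem against cork 0 of the 5 were called, with values from -0.52 (rpl36) to 0.05 (rpoA), where rpl14 and rpl16 were at -1.0 and -0.8. Of all probe sets 40.2% were called in this comparison, and 20.4% were called lower in xylem. In MYB61 knockout cork rpl36 (-1.08, adjusted p = 0.0116) and rpl22 (-0.45, adjusted p = 0.0252) fell and rps3, which adjoins rpl16, stood at -0.29 (adjusted p = 0.239). In MYB50 knockout cork rpl22 fell (-0.39, adjusted p = 0.016) and rps3 stood at -0.18 (adjusted p = 0.312). Whether the genes of this cluster differed from each other was not tested. Next to rps15, ndhH was at -0.23 (adjusted p = 0.166) in Col-0 xylem against cork, at 0.19 (adjusted p = 0.448) in MYB61 knockout cork and at -0.37 (adjusted p = 0.0254) in MYB50 knockout cork. Of all probe sets 8.00% were called in MYB61 knockout cork and 42.2% in MYB50 knockout cork. Of the 7 genes tested in that cluster, 2 were lower in xylem than in cork of Col-0 and 0 higher. These 2 were ndhD (-0.89, adjusted p = 1.41e-06) and psaC (-0.88, adjusted p = 0.000128). Of the same 7 genes, 2 fell and 1 rose in MYB61 knockout cork, and 4 fell and 1 rose in MYB50 knockout cork. Among them psaC, for an iron-sulphur subunit of photosystem I, fell in both knockout corks (-0.78, adjusted p = 0.00454, and -1.32, adjusted p = 3.19e-07), as did ndhD (-0.7, adjusted p = 0.000889, and -0.36, adjusted p = 0.0269). In MYB50 knockout cork ndhE fell too (-0.85, adjusted p = 0.00149), and ndhI rose in both (0.45, adjusted p = 0.00647, and 0.72, adjusted p = 1.53e-06).

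Nuclear genes for proteins of the same ribosome gave other values. Of 39 listed by locus number, 10 could be matched to a probe set and tested. In Col-0, 6 of the 10 were lower in xylem than in cork and 0 higher (median -0.38), beside 20.4% of all probe sets called lower. In MYB61 knockout cork 0 of the 10 were called (median 0.06), near the 8.00% called over all probe sets, where all 3 members fell. In MYB50 knockout cork 8 of the 10 rose (median 0.4), where 42.2% of all probe sets were called in either direction. AT5G24490 rose by 1.16 (adjusted p = 6.2e-05) and AT2G43030 by 1.03 (adjusted p = 7.21e-10), where the members fell. In max4 hypocotyls all 10 fell (median -0.7), AT2G43030 by 1.13 (adjusted p = 7.64e-11), where no member was called lower. Of all probe sets 44.6% were called in max4.

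**Figure D4:**
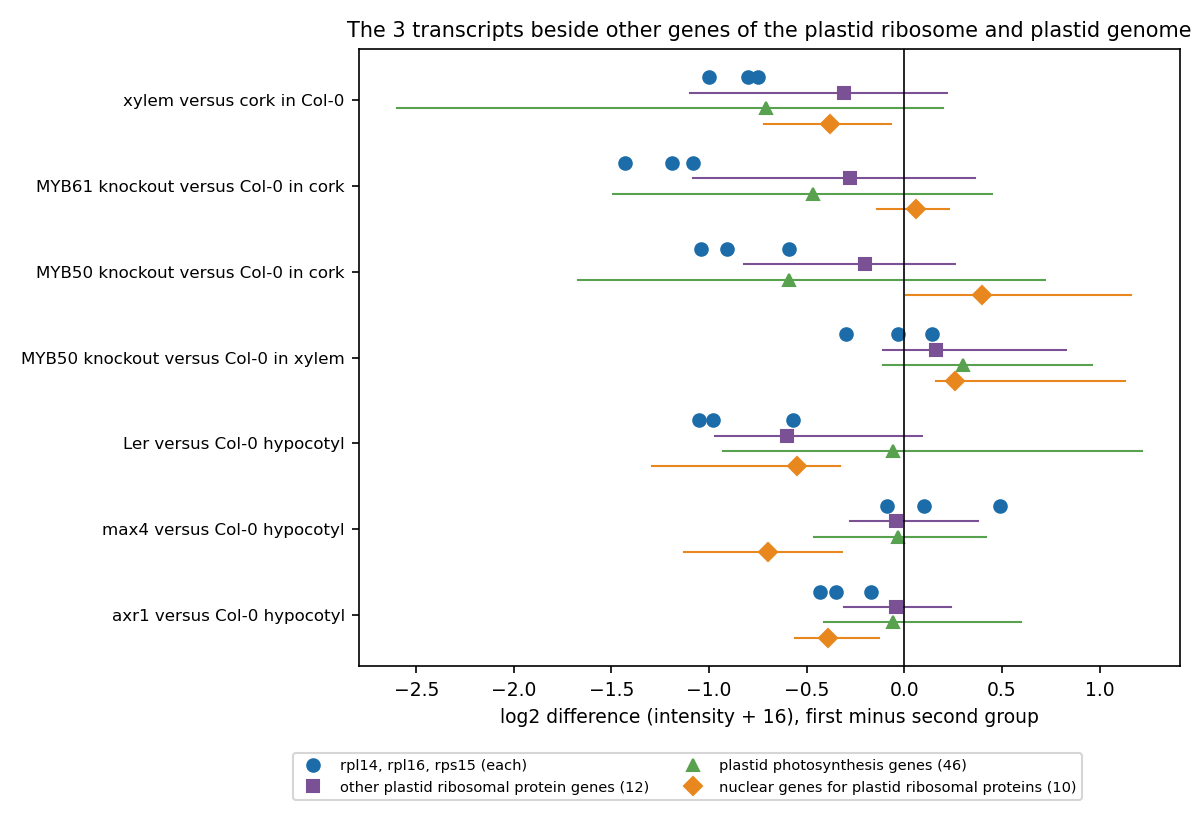
Log2 differences in 7 comparisons: blue points are rpl14, rpl16 and rps15 each, and the other symbols are the median of a gene list with a line from its lowest to its highest member (number of genes tested in the legend). In both knockout corks the 3 members lie left of the medians of the nuclear genes (0.06 and 0.4), and in max4 the nuclear median lies at -0.7.

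The hypocotyl comparisons ask how plants with altered abscisic acid, strigolactone or auxin pathways differ from their wild type. Against Ler, 0 of 3 members were called in abi1, where 10.4% of all probe sets were: the differences were -0.32 for rpl14 (95% interval -0.72 to 0.08), -0.06 for rpl16 (-0.35 to 0.23) and 0.1 for rps15 (-0.21 to 0.41). In aba1, 0 of 3 were called against a background of 27.1%, with -0.27 for rpl14 (-0.67 to 0.13) and -0.07 for rpl16 (-0.36 to 0.21). For rps15 the aba1 arrays all lay above those of Ler, but the difference of 0.37 (SE 0.15) missed the threshold (adjusted p = 0.0707). It was called with array quality weights (0.3, adjusted p = 0.0342) and in a fit of these groups alone (0.37, adjusted p = 0.0384). Between abi1 and aba1, which share Ler as their wild type, 0 of 3 were called where 15.4% of all probe sets were; rps15 differed by -0.27 (adjusted p = 0.256) without overlap.

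In max4, rps15 was above Col-0 hypocotyl without overlap, by 0.49 (SE 0.15, adjusted p = 0.00967, 1.43-fold). It was the single member called, where 44.6% of all probe sets were. The differences of rpl14 (-0.09, 95% interval -0.49 to 0.31) and rpl16 (0.1, -0.19 to 0.39) were not called. The rps15 call was lost without Col-0 hypocotyl replicate 3 (0.35, adjusted p = 0.0883). None of the other 12 plastid ribosomal protein genes was called in max4 (median -0.04), and ndhH beside rps15 stood at 0.16 (adjusted p = 0.358).

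In axr1, rpl16 fell by 0.43 against Col-0 (SE 0.14, adjusted p = 0.016, 1.36-fold), the single member called where 36.6% of all probe sets were. The axr1 arrays lay below those of Col-0 for rpl14 as well, by -0.35 (adjusted p = 0.173), a value that was called in a fit of the compared groups alone (adjusted p = 0.00272). For rps15 the difference was -0.17 (adjusted p = 0.425). The rpl16 call was lost without Col-0 hypocotyl replicate 1 (-0.38, adjusted p = 0.0707) or 3 (-0.37, adjusted p = 0.0719) or axr1 replicate 2 (-0.41, adjusted p = 0.0502). Set directly against axr1, max4 had more rpl16 (0.53, adjusted p = 0.00407, 1.46-fold) and more rps15 (0.65, adjusted p = 0.0013, 1.64-fold), 2 of 3 members called where 32.2% of all probe sets were, and rpl14 differed by 0.26 (adjusted p = 0.344), a value called in a fit of the compared groups alone (adjusted p = 0.0139). The calls of rpl16 and rps15 were kept under each alternative run.

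Between the wild types, all 3 members were lower in Ler than in Col-0 hypocotyls without overlap: rpl14 fell by 0.98 (SE 0.2, adjusted p = 8.45e-05, 2.02-fold), rpl16 by 1.05 (SE 0.14, adjusted p = 1.72e-07, 2.11-fold) and rps15 by 0.57 (SE 0.15, adjusted p = 0.00181, 1.58-fold). This comparison had the highest background of the 20, 57.8% called and 27.1% lower. Of the 12 other plastid ribosomal protein genes 10 fell (median -0.6, against 0.02 for all probe sets), among them rps18 by 0.97 and rpl36 by 0.92, and of the 10 nuclear genes 9 fell (median -0.55). All 5 cluster neighbours of rpl14 and rpl16 fell, with rps19 at -0.79 (adjusted p = 6.48e-06). The 25S control was 45.6 to 81.3 on the Ler arrays and 1982.2 to 2688.5 on the Col-0 hypocotyl arrays, and the scanner background 115.35 to 131.51 against 64.56 to 89.8. With the 25S control as a covariate, rpl16 was still called (-0.74, adjusted p = 0.00924), but rpl14 (-0.49, adjusted p = 0.222) and rps15 (-0.21, adjusted p = 0.542) were not. The actin 3' to 5' ratio was 1.25 to 1.29 in Ler and 1.44 to 1.72 in Col-0, and with it as a covariate all 3 were still called (-0.68, -0.94 and -0.42). Tissue markers also stood apart without overlap: suberin was 265.0 to 276.3 in Ler against 61.9 to 76.4 in Col-0, the summed xylem wall markers 131.0 to 135.4 against 261.1 to 269.6, and the summed phloem markers 430.9 to 619.5 against 783.0 to 814.0. The 3 phloem markers did not move together: 1 was called higher in Ler and 1 lower (-1.32 to 0.7, median 0.18). The summed green-tissue markers were 488.4 to 536.9 against 548.5 to 583.6, and the part of the tissue markers was not tested. The Ler and Col-0 hypocotyl arrays did not overlap in the 25S control, the scanner background or the actin ratio. Accession and these array measures therefore cannot be told apart for any of the 3 genes.

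Col-0 was sampled as xylem, cork and whole hypocotyl. Cork was above hypocotyl for all 3 members, by 0.65 for rpl14 (adjusted p = 0.00778, 1.62-fold), 0.44 for rpl16 (adjusted p = 0.0113, 1.36-fold) and 0.96 for rps15 (adjusted p = 6.3e-06, 2.05-fold), with 44.0% of all probe sets called and 22.1% called higher in cork. The calls of rpl14 (adjusted p = 0.0636) and rpl16 (adjusted p = 0.0583) were lost without Col-0 cork replicate 2, and that of rpl16 also without Col-0 hypocotyl replicate 2 (adjusted p = 0.0882). Xylem was below hypocotyl for rpl16 (-0.36, adjusted p = 0.0317), with rpl14 (-0.36, adjusted p = 0.127) and rps15 (0.21, adjusted p = 0.255) not called and a background of 55.5%. The rpl16 call was lost under 8 of 17 alternatives. In contrast, 9 of the 10 nuclear genes were lower in cork than in hypocotyl (median -0.47). All 10 were also lower in xylem than in hypocotyl (median -0.85).

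The 3 members were compared with each other within arrays, which cancels the level of an array. The xylem minus cork difference of rpl14 minus rpl16 was 0.04 over 9 xylem and 9 cork arrays (two-sided exact permutation test within genotypes, p = 0.674), that of rpl14 minus rps15 was 0.0 (p = 0.981) and that of rpl16 minus rps15 was -0.04 (p = 0.612). Each of these 3 had an adjusted p of 0.981 over the 3 pairs in the exact permutation test. In Col-0 alone the values were -0.21, -0.25 and -0.05, within which rpl14 showed the largest of the 3 tissue differences. In the MYB61 knockout the values were 0.04, 0.2 and 0.16, and in the MYB50 knockout 0.28, 0.05 and -0.23. Each average thus joined values of both signs, so the test cannot show a difference that changes sign between genotypes.

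Likeness of pattern was read as Pearson's r over the 36 arrays with each of 8856 other probe sets that name 1 gene, as a description, since arrays of a group and a set of plants are not independent. The transcript most like rpl14 was rpl16 (r = 0.928), its neighbour, followed by the plastid genes rpl20 (0.856), rpl22 (0.848), atpA (0.847) and ccsA (0.83). For rpl16 they were rpl14, the nuclear gene AT3G01520 (0.879), atpA (0.854), the nuclear gene AT5G23890 (0.853) and ccsA (0.853). For rps15 they were rpl20 (0.843), rpl14 (0.821), rpl16 (0.807), atpF (0.79) and AT5G23890 (0.746). Plastid genes held 12 of these 15 places, and rpl14 and rpl16 were each among the 5 most like both other members, while rps15 was on neither of their lists.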

How the data were processed

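Each of 36 RNA samples was hybridised to 1 ATH1 array, in 12 groups of 3 taken from the labels. The authors deposited scaled probe-set intensity values on a linear scale, 1 per probe set, for 22810 probe sets. The software that summarised the probes and the scaling target are not given in the sources used here. How the arrays were scaled was not checked. The number of arrays limits the precision. The labelled RNA was copied with an oligo-dT primer, per the labels' protocols.

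After leaving out 64 control probe sets, those with a mean at or above the 30th percentile (14.69) of the other 22746 were kept, 15924 in all. Of the 22746, 13513 named 1 gene, 503 several and 8730 none in the platform's gene table. Log2 of intensity plus 16 was fitted with 12 group means in limma 3.58.1 (R 4.3.3, 24 residual and 6.26 prior degrees of freedom, trended variance), with Benjamini-Hochberg adjustment across all 15924 within each of 20 two-sided contrasts; the log2 scale with 16 added understates changes of dim genes. Exact permutation tests and tables used Python 3.11.15, numpy 2.4.6 and pandas 2.3.3. Alternatives were pseudocounts of 1 and 64, quantile normalization, no filter or one at the 50th percentile, array quality weights, the replicate block, scanner background as a covariate, only the compared groups, and leaving out each array; covariates for the 25S control and the actin 3' to 5' ratio were added after seeing the data.

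The members and the gene lists were chosen with earlier results of these data known. Genes named beside the members were, by rule, up to 2 called members of a list with the largest differences in each direction and the 5 transcripts of highest r for each member; the adjoining genes rps3 and ndhH were added for their place in RefSeq's gene order (TAIR10.1, used for names and order alone), and rpoA for the range it bounds. No sequences or coordinates are given, since no genome was used here.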

Additional observations from a re-analysis of the deposited data

Results flagged for a closer look

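The effect of a knockout differed between tissues, by the contrast of its effect in xylem minus its effect in cork, for 4 of the gene and knockout pairs. For the MYB50 knockout this difference was 1.05 on the log2 scale for rpl14, 0.56 for rpl16 and 0.74 for rps15, and for the MYB61 knockout it was 0.98 for rpl16. Over all probe sets 18.2% were called in this contrast for the MYB50 knockout and 0.113% for the MYB61 knockout. For the MYB50 knockout the rpl14 call held under each alternative run, the rpl16 call was lost under 14 of 23 and the rps15 call under 3 of 23, and for the MYB61 knockout the rpl16 call was lost under 12 of 23. In each of the 4 the knockout lay below Col-0 in cork without overlap and was not called in xylem. Both knockouts were compared with the same Col-0 cork arrays, the highest of the series for all 3 genes, so the 4 values are not independent of each other.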

How the results depend on the processing

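Of 1110 values of single genes under the alternatives, 1034 kept their side of the threshold, of which 989 also kept their sign and 45, all uncalled, did not. A call was lost in 55 and gained in 21, and 0 called values changed sign. The counts below are members called, of 3, and the cause of a change was not tested. With a covariate for the actin 3' to 5' ratio (chosen after seeing the data) the counts were 0 for xylem versus cork over 3 genotypes, 1 for the MYB50 knockout in xylem, 0 for the MYB61 knockout's effect in xylem minus cork, 0 for the MYB61 against the MYB50 knockout, 2 for axr1 and 0 for Col-0 xylem against hypocotyl. With the 25S control (also chosen after seeing the data) they were 0 for the MYB61 effect, 1 for Ler against Col-0 and 0 for Col-0 xylem against hypocotyl. Quantile normalization and the scanner background as a covariate each gave 0 for the MYB61 effect and 0 for Col-0 xylem against hypocotyl. Both also lost the rpl16 call of the MYB50 effect (adjusted p = 0.08 and 0.12). The 25S control (0.0577), a pseudocount of 1 (0.0543) and no filter (0.0647) lost that call too. Quantile normalization and a pseudocount of 64 gained the rpl14 call of xylem versus cork over 3 genotypes (adjusted p = 0.0427 and 0.0476). Array quality weights gave 3 for the MYB61 effect, 1 for the MYB61 against the MYB50 knockout, 1 for abi1 and 1 for aba1. A fit of only the compared groups gave 0 for the MYB61 effect, 1 for aba1, 2 for axr1, 2 for Col-0 xylem against hypocotyl, 3 for max4 against axr1 and 2 for the MYB50 effect. Leaving out each array in turn gave 1 to 3 for xylem versus cork over 3 genotypes, 0 to 1 for the MYB50 knockout in xylem, 0 to 2 for the MYB61 effect, 1 to 3 for the MYB50 effect, 1 to 2 for the MYB61 against the MYB50 knockout, 0 to 1 each for max4, axr1 and Col-0 xylem against hypocotyl, and 1 to 3 for Col-0 cork against hypocotyl. Counts over all probe sets moved by over 1.5 times for the MYB61 knockout in cork (1274, against 230 to 780 under 6 alternatives) and in xylem (299, against 39 to 193 under 3), the MYB61 effect (18, against 3 to 200 under 11), abi1 (1661, against 940 to 3219 under 5), aba1 (4317, against 6892 with array quality weights) and xylem versus cork in the MYB61 knockout (5388, against 3438 in a fit of the compared groups). The replicate block left each count of members as it was, for instance 3 in both knockout corks and 1 for the MYB61 effect. Same-numbered samples correlated at -0.428 to 0.327 in their deviations, over 0.1 in 11 of 63 and in all pairs of 0 of 21 group pairs, so the numbers do not pair the samples.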

Other observations

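Transcripts of the other organelle genome were read beside the plastid members, from 15 probe sets for 9 mitochondrial genes of 30 listed. In MYB61 knockout cork 5 of the 15 fell against Col-0 and 0 rose (median -0.38), where 8.00% of all probe sets tested were called, and cox1, for a subunit of cytochrome c oxidase, fell by 0.95 (SE 0.13, limma adjusted p = 8.52e-06). In MYB50 knockout cork 6 fell and 1 rose (median -0.24), a share near the 42.2% called over all probe sets, with cox1 lower by 1.13 (adjusted p = 1.41e-08). In axr1 hypocotyls 11 of the 15 fell and 0 rose (median -0.71), where 36.6% of all probe sets were called, among them nad9, for a subunit of respiratory complex I, by 1.09 (adjusted p = 1.58e-06). In Ler against Col-0 hypocotyls, where all 3 plastid members fell, 6 of the 15 rose and 2 fell (median 0.08), a share near the 57.8% called over all probe sets, with cox1 higher by 1.22 (adjusted p = 9.79e-10). Several probe sets name nad1 and differed from each other in direction, so no value is given for that gene.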
